A study of Mus musculus with 9 samples.

Results

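The genes described here are 10 targets and effectors of the integrated stress response, namely Atf4, Atf5, Ddit3, Trib3, Chac1, Asns, Sesn2, Psat1, Phgdh and Ddit4, as measured by RNA-seq in the mouse fetal brain after prenatal EtOH exposure. They were chosen by name from a table of 27095 loci, and all 10 were found there. Of these, 9 had a mean FPKM of at least 1 over the groups, where FPKM is the number of fragments per kilobase of exon, scaled to the mapped fragments of the library. Trib3 lay below that level. The control group held 3 wild-type C57BL/6 fetuses whose dams had received lactated Ringer's solution by intraperitoneal injection on gestational day (GD) 7. The dams of the exposed fetuses had received 2.9 g/kg EtOH by the same route on that day. Exposed fetuses scored with ocular and cortical or craniofacial defects formed the EtOH-exposed affected group, with 3 fetuses, and exposed fetuses without such defects formed the EtOH-exposed unaffected group, also with 3. All tissue was collected on GD 17, as fetal brain according to the labels and as cortex according to the methods. The groups of exposed fetuses were therefore sorted by outcome after the same exposure, and expression was read 10 days after it.

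The table gives 1 FPKM value for each group and locus, taken by the authors' software over the 3 animals. No value of a single animal was used here, so no difference below has a replicate error or a test, and whether any of them exceeds the spread between animals was not tested. A gene was counted as higher when it was at least 25% above the other group, and as lower when it was at least 20% below it, which is the same ratio the other way and 0.32 on the log2 scale. The counts of the 10 genes, and of the gene lists below, are set beside the share of all 15455 loci with a mean FPKM of at least 1 that passed the same limit. Trib3 is counted among the 10 though it lies below that level. The depth of the libraries is unknown from these values.

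The integrated stress response joins several forms of stress, such as shortage of amino acids, unfolded protein in the endoplasmic reticulum, double-stranded RNA and shortage of heme, to one event, the phosphorylation of the initiation factor eIF2 alpha. General translation then falls while the mRNA of the transcription factor ATF4 is translated more, so that ATF4 protein can rise without a rise of its mRNA. ATF4, with partners of the C/EBP family, binds composite elements near the genes of amino acid synthesis and uptake and of other stress regulators. In the developing brain the serine pathway, which holds Phgdh and Psat1, is strong in radial glia, the progenitors of cortical neurons and astrocytes.

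The promoters were searched for the core of the element through which ATF4 is known to act. All 10 genes were matched in the RefSeq promoter table (GRCm38.p6), in which each window runs from 250 bases before to 50 bases after the start of transcription. The core searched first was TGATGNAA, on both strands, and 3 of the 10 genes held it, against 4.51% of 27025 symbols in the table. In Asns the match was TGATGAAA at positions -23 to -16 from the start, in Chac1 it was TGATGCAA on the reverse strand at positions -193 to -186, and in Trib3 it was TGATGTAA on the reverse strand at positions 15 to 22. The looser pattern TGNTGNAA, which includes the first, was held by 6 of the 10 genes and by 16.6% of symbols. It added Psat1, Phgdh and Sesn2, and it gave a further match in Trib3. In all, 6 patterns were scanned, and 5 of them, the looser one included, were thought of after the promoters of these genes had been read, so the count for that pattern is no independent measure. A match is a description of these letters and not a binding site. The 250 bases before the start are shown for 5 of the 6 genes with a match, to let the shared letters be compared, with matches to TGNTGNAA on either strand in capitals. The windows, 5' to 3' on the strand of the gene, are chr6:7693210-7693459 for Asns, chr2:119350992-119351241 for Chac1, chr2:152344061-152344310 for Trib3, chr19:15925060-15925309 for Psat1 and chr3:98339970-98340219 for Phgdh. Only Chac1 lies on the forward strand among the 5.
Asns: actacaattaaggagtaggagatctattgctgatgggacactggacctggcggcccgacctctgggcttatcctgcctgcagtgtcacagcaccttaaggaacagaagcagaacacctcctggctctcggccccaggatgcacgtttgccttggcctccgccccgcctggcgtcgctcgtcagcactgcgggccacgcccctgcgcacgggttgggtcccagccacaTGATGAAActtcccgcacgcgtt
Chac1: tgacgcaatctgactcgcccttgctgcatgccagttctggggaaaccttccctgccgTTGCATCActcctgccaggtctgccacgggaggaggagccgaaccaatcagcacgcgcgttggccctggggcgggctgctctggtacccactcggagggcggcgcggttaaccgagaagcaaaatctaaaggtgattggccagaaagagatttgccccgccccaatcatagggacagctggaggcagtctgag
Trib3: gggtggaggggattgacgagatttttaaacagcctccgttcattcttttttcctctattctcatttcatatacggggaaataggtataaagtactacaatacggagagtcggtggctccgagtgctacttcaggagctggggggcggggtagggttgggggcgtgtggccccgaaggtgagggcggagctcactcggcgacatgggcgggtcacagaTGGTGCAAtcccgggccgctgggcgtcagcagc
Psat1: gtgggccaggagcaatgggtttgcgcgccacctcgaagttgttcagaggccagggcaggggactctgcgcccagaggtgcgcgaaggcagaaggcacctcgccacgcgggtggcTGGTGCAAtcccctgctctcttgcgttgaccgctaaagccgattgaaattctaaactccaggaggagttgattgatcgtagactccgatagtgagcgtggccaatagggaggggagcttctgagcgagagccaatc
Phgdh: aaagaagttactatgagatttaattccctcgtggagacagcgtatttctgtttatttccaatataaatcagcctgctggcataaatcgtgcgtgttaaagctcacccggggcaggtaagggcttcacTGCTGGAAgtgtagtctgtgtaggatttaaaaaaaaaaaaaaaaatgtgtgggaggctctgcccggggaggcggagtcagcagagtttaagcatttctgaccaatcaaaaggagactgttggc
The letters of the Psat1 and Trib3 matches in capitals are the same, TGGTGCAA, and the Phgdh match is TGCTGGAA.

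The levels of the 10 genes spanned a wide range. Psat1, Ddit4, Atf4 and Phgdh were above 50 FPKM in every group, Asns, Atf5 and Ddit3 lay between 14.3 and 31.3 FPKM, Chac1 and Sesn2 lay between 1.53 and 2.34 FPKM, and Trib3 was under 0.3 FPKM throughout. Since FPKM is scaled to length, these levels can be set beside each other, within limits. The Psat1 value also holds the reads of its neighbour Cep78, and Atf5, Ddit3 and Sesn2 overlap other genes.

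**Figure D1:**
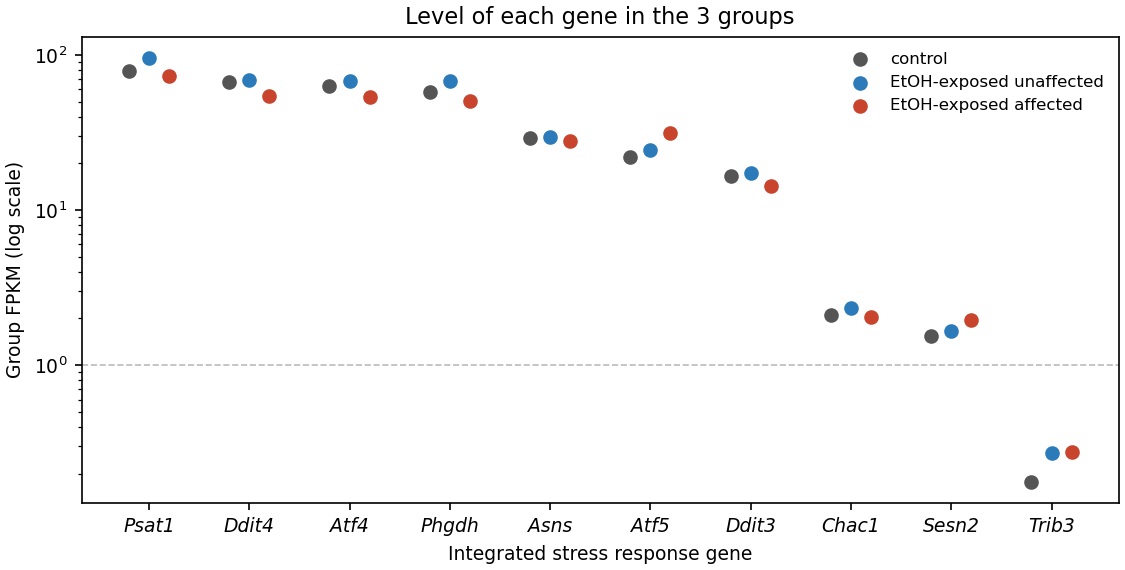
Level of the 10 genes in the control group and both EtOH-exposed groups, as the authors' FPKM on a log scale, with 1 point per group and no error available. The affected group is the lowest of the 3 for 7 genes and the highest for Atf5, Sesn2 and Trib3, and the dashed line marks 1 FPKM.

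Atf4, the transcription factor at the centre of the response (chr15:80255184-80257541), was measured at 62.7 FPKM in the control group, 67.4 in the unaffected group and 53.1 in the affected group. The affected value was 1.18-fold below the control value, a log2 difference of -0.24, and 1.27-fold below the unaffected value, a log2 difference of -0.34. The unaffected group was the highest and the affected group the lowest.

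Atf5, a related factor that is also translated under eIF2 alpha phosphorylation and that controls genes of the mitochondrial stress response, was highest in the affected group. Its FPKM was 22.1 in the control group, 24.2 in the unaffected group and 31.3 in the affected group. The affected value was 1.42-fold above control, a log2 difference of 0.50, and 1.29-fold above the unaffected value, a log2 difference of 0.37. Among loci within 2-fold of its level, the log2 difference between affected and control fetuses lay at percentile 98.5 and that between affected and unaffected fetuses at percentile 86.6. Atf5 overlaps Il4i1 and Nup62 on chromosome 7, and the use of strand in counting was not stated, so that reads of these genes may be split among them. The locus named for Nup62 and Il4i1 went from 24.8 FPKM in the control group to 28.2 in the affected group, a log2 difference of 0.19, and that of the neighbour Tbc1d17 differed by 0.09 on that scale. These neighbours differed in the same direction and by less.

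Ddit3, which encodes the factor CHOP that promotes cell death under lasting stress, was at 16.6 FPKM in the control group, 17.2 in the unaffected group and 14.3 in the affected group. Its log2 differences were -0.21 for affected against control and -0.26 for affected against unaffected, both short of the limit. Ddit3 overlaps Mars and Gm4189, and Mars had a log2 difference of -0.25 between the affected and unaffected groups.

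Trib3, a pseudokinase that restrains ATF4 and AKT signalling, was at 0.178 FPKM in the control group, 0.271 in the unaffected group and 0.278 in the affected group. Both exposed groups were above control, by 1.56-fold for the affected and 1.53-fold for the unaffected fetuses, and they differed from each other by 1.02-fold. With 1 FPKM added to every value, Trib3 no longer passed the limit in either comparison. Loci within 2-fold of the level of Trib3 had log2 differences between affected and control fetuses from -1.08 to 1.05 at their 5th and 95th percentiles, a range that holds the 0.64 of Trib3.

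Chac1, an enzyme that degrades glutathione and one of the most responsive ATF4 targets, was at 2.10 FPKM in the control group, 2.34 in the unaffected group and 2.05 in the affected group. Asns, the asparagine synthetase, was at 29.3, 29.7 and 28.0 FPKM in the same order of groups. Neither gene reached the limit in any of the 3 comparisons. These are the genes with the letters of the first pattern before their start.

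In the deposited values Phgdh and Psat1, of the serine pathway, had the largest differences of the 10 genes between the exposed groups, while with the length trend removed Atf5 had the largest under all 3 definitions of length. Phgdh, its first enzyme (chr3:98313171-98339969), was at 57.3 FPKM in the control group, 67.7 in the unaffected group and 50.5 in the affected group. The affected value was 1.34-fold below the unaffected value, a log2 difference of -0.42, and 1.14-fold below control. Psat1, the next enzyme, was at 78.3, 95.5 and 73.0 FPKM in control, unaffected and affected fetuses, so the affected value was 1.31-fold below the unaffected value and 1.07-fold below control. For both genes the unaffected group stood above the control group, by 1.18-fold for Phgdh and 1.22-fold for Psat1. Among loci within 2-fold of their levels, the difference of affected from unaffected fetuses lay at percentile 13.3 for Phgdh and 20.8 for Psat1, and the difference of unaffected from control fetuses lay at percentile 97.0 for Phgdh and 98.3 for Psat1. In the table Psat1 is joined with its neighbour Cep78 in 1 locus, so its values hold the reads of both. Psph, the enzyme that completes serine synthesis and is not one of the 10, was at 15.3, 16.9 and 12.1 FPKM in the same order, with log2 differences of -0.33 for affected against control and -0.48 for affected against unaffected.

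Sesn2 and Ddit4 both restrain mTORC1, and the affected group was the highest for Sesn2 and the lowest for Ddit4. Sesn2, the leucine sensor sestrin 2, was at 1.53 FPKM in the control group, 1.65 in the unaffected group and 1.96 in the affected group, with a log2 difference of 0.36 between affected and control fetuses, which fell short of the limit once 1 FPKM was added to every value, and also with the trend by transcript length described below removed, at 0.23 to 0.29 over 3 definitions of length. Loci within 2-fold of its level ran from -0.67 to 0.78 at their 5th and 95th percentiles in that comparison. Ddit4, which encodes REDD1 and also responds to hypoxia and glucocorticoids, was at 66.6 FPKM in the control group, 68.5 in the unaffected group and 53.9 in the affected group. Its affected value was 1.23-fold below control, a log2 difference of -0.30, and 1.27-fold below the unaffected value. Sesn2 overlaps Gm12981.

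Set together, the 10 genes did not move one way in the affected fetuses. Against control, 3 genes were higher by this measure, namely Atf5, Trib3 and Sesn2, and 0 were lower, where 12.6% of all loci were higher and 11.5% lower. Those loci have a mean FPKM of at least 1, which Trib3 does not reach. Of the 9 genes that do, 2 were higher and 0 lower. Without regard to size, 3 of the 10 were above control, against 53% of all loci. The median log2 difference of the 10 genes was -0.08, beside 0.02 for all loci, and single genes ran from -0.30 for Ddit4 to 0.64 for Trib3. Atf4 and 6 other genes lay below control while Atf5 lay above it. With the length trend removed, Asns turned above control with the first definition, which gave 4 genes above, and Ddit3 and Chac1 did with both basic definitions, which gave 5.

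Against the unaffected fetuses, 1 gene of the affected group was higher, Atf5, and 4 were lower, Atf4, Psat1, Phgdh and Ddit4. Of all loci 20.7% were higher and 18.5% lower by the same measure, and 51.2% were higher by any amount, as were 3 of the 10 genes. The median log2 difference of the 10 genes was -0.23, beside 0.01 for all loci. These values depend on how length is treated. With the length trend removed, 4 genes were higher by any amount with the first definition and 6 with both basic definitions, in which Ddit3, Chac1 and Asns turned above 0. With the length trend removed by the definition run first, Atf4 at -0.34 and Ddit4 at -0.36 stayed lower and Psat1 and Phgdh did not, and with both basic definitions Psat1 stayed lower while Atf4 went to -0.16, Ddit4 to -0.17 and Phgdh to -0.27.

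Between unaffected and control fetuses 1 gene was higher by this measure, Trib3, and 0 were lower, against 5.53% and 6.99% of all loci. Of the 9 genes with a mean FPKM of at least 1, 0 were higher. All 10 genes were above control by some amount, against 51.7% of all loci, with log2 differences from 0.02 for Asns to 0.61 for Trib3 and a median of 0.12, beside 0.01 for all loci. That count does not hold once a trend with transcript length is removed, as described below. The 3 comparisons share their groups, so they are not independent of each other.

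**Figure D2:**
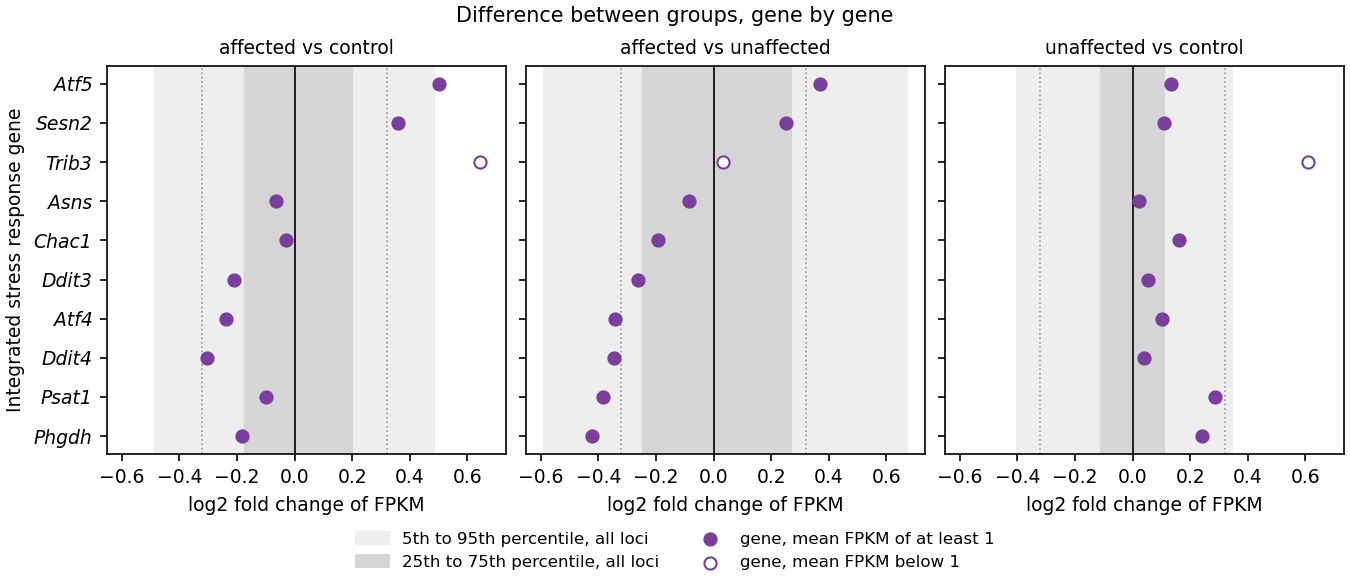
Log2 fold change of FPKM of the 10 genes in the 3 comparisons, 1 point per gene, with grey bands for the central ranges of the 15455 loci with a mean FPKM of at least 1 and dotted lines at 25% above and 20% below. Atf5 lies at 0.50 and 0.37 in the comparisons of affected fetuses, Phgdh at -0.42 against unaffected fetuses, and Trib3, an open circle, is below 1 FPKM.

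Only 2 of the possible orders of the 3 groups occurred. In 7 genes (Atf4, Ddit3, Chac1, Asns, Psat1, Phgdh and Ddit4) the unaffected group was highest and the affected group lowest, an order found in 31.1% of all loci. Of these, Ddit3, Chac1, Asns and Ddit4 changed sign in at least 1 comparison with the length trend removed, and Atf4, Psat1 and Phgdh did not under any of the 3 definitions. In Atf5, Trib3 and Sesn2 the affected group was highest and the control group lowest, an order found in 12.7% of all loci.

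The fold changes of all loci varied with transcript length. Across 12483 loci with a length, Spearman's rho between length and the log2 fold change was 0.56 for affected against control, 0.64 for affected against unaffected and -0.50 for unaffected against control with lengths from basic transcripts per gene, and 0.30, 0.36 and -0.31 with the definition run first, given as a description since loci of 1 library share its RNA. Loci under 1000 nt had a median log2 difference of -0.42 between affected and unaffected fetuses, and loci of 4000 nt or more had one of 0.27. Of the 10 genes, 9 have transcripts between 890 and 2454 nt, lengths at which the running median of all loci was below 0 in both comparisons of the affected group, and Sesn2, at 3475 nt, lies where it was above 0.

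Length was defined in 3 ways, and the results depend on which is used. The median over all annotated transcripts was run first. It was replaced by the median over the basic transcripts after its results had been seen, because short fragments gave lengths such as 568 nt for Asns, and that in turn by the median per gene, because 2 genes share the name Ddit3. The medians by length and the plot of length use the last. With the trend removed, the count of genes lower in affected than in unaffected fetuses went from 4 to 2 with the first definition. It went to 1 with each of the other definitions. The share of all loci that were lower fell too, from 18.5% to 13.4% with the first and to 9.2% with the others. The median log2 difference of the 10 genes in that comparison went from -0.23 to -0.15 with the first and to 0.026 with both of the others. The median against control went from -0.08 to -0.012 with the first, and to 0.044 and 0.027 with the others. Phgdh against unaffected fetuses was at -0.27 and Psat1 at -0.34 with the per-gene lengths, while Ddit3 changed from -0.26 to 0.14. Atf5 was at 0.60 against control and 0.55 against unaffected fetuses. Between unaffected and control fetuses Ddit3, Asns and Ddit4 were below 0 with both basic definitions, and Asns with the first. The part that RNA integrity or library preparation has in the trend was not tested.

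**Figure D3:**
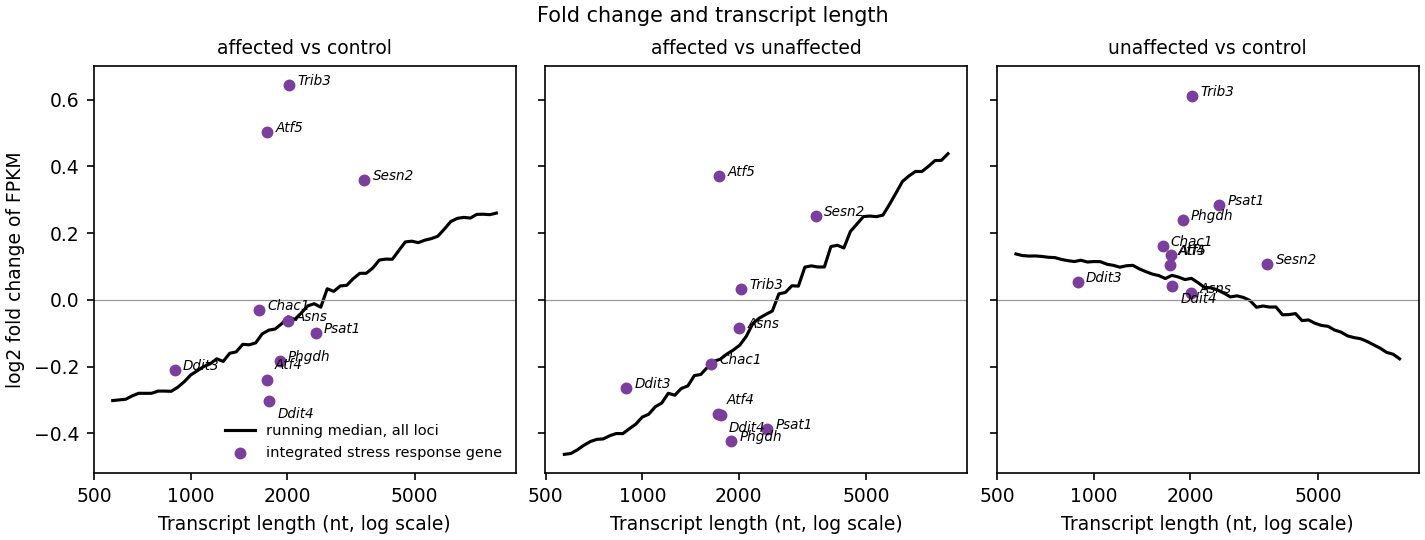
Log2 fold change of FPKM against transcript length (median of the basic transcripts per gene, log axis) in the 3 comparisons, with the running median over all loci as a line and the 10 genes as labelled points. The line climbs with length in both comparisons of affected fetuses and descends in unaffected against control, and Atf5 lies above it in all 3 panels.

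The counts of every list below are to be read against the shares of all loci at the same setting. As deposited, 12.6% were higher and 11.5% lower in affected than in control fetuses, and 20.7% higher and 18.5% lower than in unaffected fetuses. With the length trend removed these shares were smaller. Against control they were 7.47% and 8.48% with the first definition, and 4.31% and 5.94% with per-gene lengths. Against unaffected fetuses they were 15.2% and 13.4% with the first, and 9.22% and 9.24% with per-gene lengths. Upstream of ATF4, of 5 genes for the eIF2 kinases and eIF2 alpha, 0 passed the limit between affected and control fetuses, and between affected and unaffected fetuses 1 was higher, Eif2ak3 at 0.37, and 1 lower, Eif2s1 at -0.43. Without the length trend these counts were 1 higher and 0 lower against control with the first definition (Eif2ak3 at 0.38) and 0 and 1 with per-gene lengths (Eif2s1 at -0.37), and against unaffected fetuses 1 and 1, and 1 and 2, with Eif2ak2 at -0.40 the added one. The endoplasmic reticulum kinase PERK, Eif2ak3, was at 6.87 FPKM in the control group and 8.50 in the affected group, a log2 difference of 0.31, and Eif2s1, which encodes eIF2 alpha, went from 41.8 to 34.1 FPKM. All 5 subunits of eIF2B, the exchange factor that phosphorylated eIF2 inhibits, were below control in the affected group, with a median log2 difference of -0.12, and 0 of them reached the limit there or against unaffected fetuses. Of all loci 53% were above control, and with the length trend removed 0 of the 5 subunits were above control with the first definition and 2 with per-gene lengths, at a median of -0.079 and -0.0062. The stress-induced phosphatase subunit Ppp1r15a, itself an ATF4 target, was at 5.64, 5.68 and 5.72 FPKM in control, unaffected and affected fetuses. It is 1 of 5 listed subunits of eIF2 alpha phosphatases, of which 2 were above control in affected fetuses, at a median log2 difference of -0.17. Of the 5, 0 passed the limit against control, and 1 was lower than in unaffected fetuses. With the length trend removed, 0 passed it in either comparison. Phosphorylation of eIF2 alpha and ATF4 protein are not measured by these data.

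Of 6 bZIP partners and related factors with a mean FPKM of at least 1, 0 were higher and 2 lower in affected than in control fetuses, beside 12.6% and 11.5% of all loci, and the counts against unaffected fetuses were the same, beside 20.7% and 18.5%. The lower ones were Nupr1, a stress-induced chromatin cofactor, at a log2 difference of -0.56 against control, and Cebpd at -0.55. Without the length trend Nupr1 was at -0.44 with the first definition and at -0.29, short of the limit, with per-gene lengths, and Cebpd was at -0.58 and -0.65. Cebpb, at 0.31 as deposited, then passed the limit against control, at 0.33 and 0.44.

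Other genes that ATF4 is known to regulate were also counted. Of 39 such genes with a mean FPKM of at least 1, 3 were higher and 1 lower in affected than in control fetuses, beside 12.6% and 11.5% of all loci, with a median log2 difference of 0.10. Against unaffected fetuses 5 were higher and 3 lower, beside 20.7% and 18.5% of all loci, with a median of 0.05. Whether these genes differ from the 10 was not tested. The 3 higher ones are transporters of amino acids, namely Slc1a5 at 0.48, Slc7a1 at 0.37 and Slc7a5 at 0.33, and the lower one is Psph. With the length trend removed by the first definition the 3 transporters stayed above the limit, and with per-gene lengths Slc1a5 did, at 0.45, while Slc7a1 went to 0.13 and Slc7a5 to 0.25. Psph went to -0.28 with the first definition and to -0.15 with per-gene lengths. In all, the counts against control became 4 higher and 0 lower with the first definition and 2 and 1 with per-gene lengths. Against unaffected fetuses the counts of 5 higher and 3 lower became 6 and 3 with the first definition, beside 15.2% and 13.4% of all loci. With per-gene lengths they became 1 and 6, beside 9.22% and 9.24%. Among 13 genes of aminoacyl-tRNA synthetases and tRNA export, 11 were above control in affected fetuses by some amount, beside 53% of all loci, and 0 reached the limit. Once the trend was removed, 11 were above control with the first definition and 9 with per-gene lengths, and 1 and 0 of them reached the limit. Against unaffected fetuses 2 of the 13 were higher and 0 lower, as deposited and with the first definition. With per-gene lengths 0 were higher and 1 lower there. Between unaffected and control fetuses 21 of the 39 were above 0, beside 51.7% of all loci. Of the 39, 1 was higher by the limit, beside 5.53% of all loci, and 0 were lower. It was Eif4ebp1, a repressor of cap-dependent translation, at 0.51. Gdf15 was under 0.06 FPKM in every group and Fgf21 was listed at 0.

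Neighbouring stress pathways were counted in the same way. Of 16 genes of the ATF6 and XBP1 arms of the unfolded protein response, 1 was higher and 0 lower in affected than in control fetuses, beside 12.6% and 11.5% of all loci, with a median log2 difference of 0.0038. It was Ern1, the sensor IRE1, at 0.40. Against unaffected fetuses 4 of the 16 were higher and 1 lower, beside 20.7% and 18.5% of all loci. Of 8 genes of the mitochondrial unfolded protein response, a program in which ATF5 takes part, 0 were higher and 1 lower, the chaperonin Hspe1 at -0.54, and against unaffected fetuses 0 were higher and 3 lower, Hspe1 at -0.67, Clpp at -0.44 and Yme1l1 at -0.41, beside 18.5% of all loci lower. With the length trend removed by per-gene lengths, Hspe1 went to -0.25 and Clpp to -0.082, short of the limit, and Yme1l1 to -0.65, while with the first definition Hspe1 was at -0.55, Clpp at -0.36 and Yme1l1 at -0.30. Of 7 hypoxia targets with a mean FPKM of at least 1, 0 were higher and 2 lower, Ankrd37 at -0.77 and Bnip3 at -0.37, where 11.5% of all loci were lower, beside the -0.30 of Ddit4, and against unaffected fetuses 3 were lower, where 18.5% of all loci were. Without the length trend, Ankrd37 was at -0.73 with the first definition and -0.52 with per-gene lengths, Bnip3 was at -0.20 and -0.19, and with both definitions 1 of the 7 was lower than control and 2 lower than unaffected. Of 6 glucocorticoid targets, which share a regulator with Ddit4, 0 passed the limit between affected and control fetuses, and between affected and unaffected fetuses 3 were higher, Fkbp5, Per1 and Zbtb16, and 1 lower, Tsc22d3 at -0.42, beside 20.7% and 18.5% of all loci. Removing the trend left 1 higher and 1 lower of these 6 with the first definition and 0 with per-gene lengths, and left 4 higher and 1 lower of the 16 with the first definition and 2 and 0 with per-gene lengths.

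**Figure D4:**
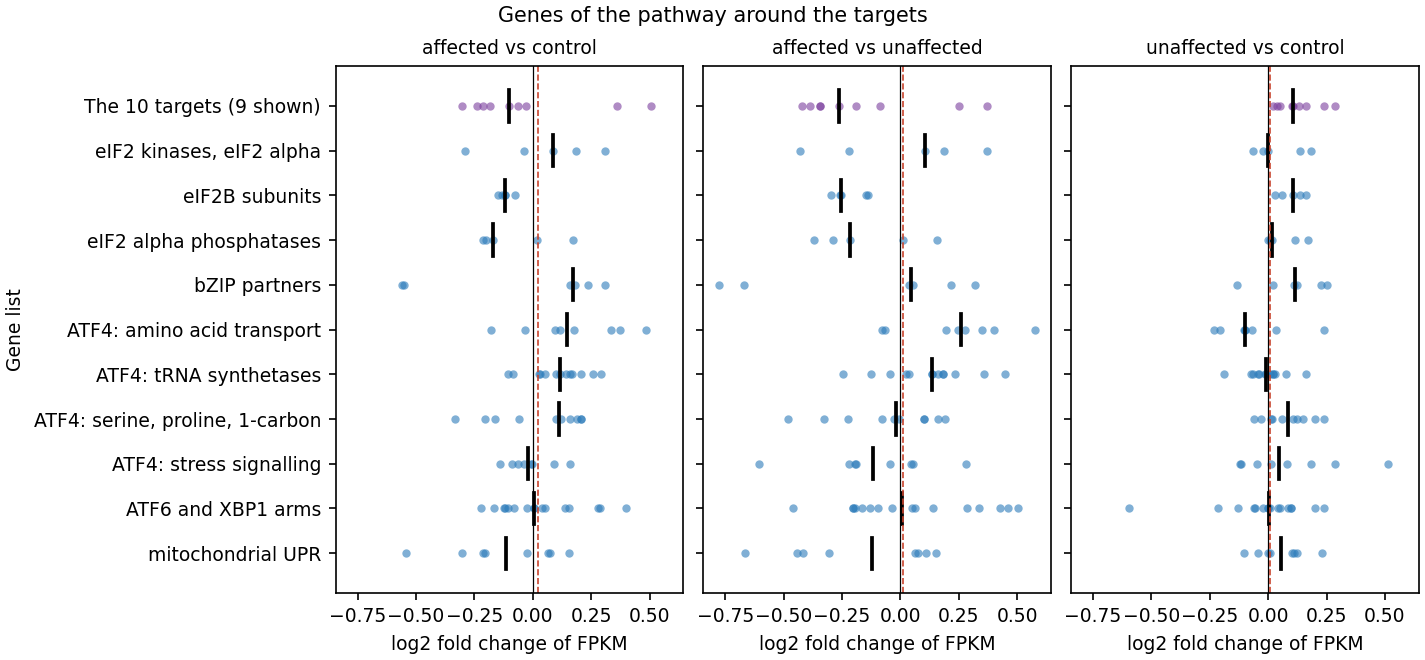
Log2 fold change of FPKM for the genes of each list with a mean FPKM of at least 1, 1 point per gene, with a black bar at the median of the list and a dashed line at the median of all loci. In affected against control the 9 targets shown have a median of -0.10, the amino acid transporters one of 0.14 and the eIF2B subunits one of -0.12.

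Markers of cell types differed between the groups too, and their part in the results above was not tested. In bulk tissue, fewer cells of a type and less RNA per cell cannot be told apart. The summed FPKM of 10 radial glia markers was 2580 in the control group, 2747 in the unaffected group and 1961 in the affected group, the same order as for Phgdh and Psat1, and Fabp7 made up most of it. Without Fabp7 the other 9 markers summed to 565, 596 and 609 FPKM in control, unaffected and affected fetuses, so that the affected group was the highest. In that list 2 genes were higher and 3 lower in affected than in control fetuses, beside 12.6% and 11.5% of all loci, Fabp7 at -0.58 and Hopx at -0.56 among the lower and Nes at 0.43 among the higher. With the length trend removed, 2 were higher and 2 lower, both with the first definition and with per-gene lengths. Fabp7, at 842 nt by per-gene length, lies where the running median of all loci was -0.27 in that comparison. Of 8 neuron markers, 4 were higher and 0 lower in affected than in control fetuses, beside 12.6% and 11.5% of all loci, with a median log2 difference of 0.32, and 5 were higher than in unaffected fetuses, beside 20.7%, with a median of 0.58. Under each of the 3 definitions of length, removing the trend left 2 higher than in control and 5 than in unaffected fetuses. Of all loci 4.31% to 7.47% were then higher than in control and 9.22% to 15.2% than in unaffected fetuses. In the deposited values Bcl11b was at 0.47 and Tbr1 at 0.38 against control. Neuron and radial glia markers were present in every group. The 4 erythroid loci summed to 5613, 7256 and 3485 FPKM in control, unaffected and affected fetuses, and the 6 microglia markers to 78.4, 82.6 and 65.3, both in the order of the 7 genes lowest in affected fetuses. Of the microglia markers, 0 were higher and 2 lower in affected than in control fetuses. Against unaffected fetuses 1 was higher and 3 lower, beside 20.7% and 18.5% of all loci. With the length trend removed by per-gene lengths, 0 of the 6 passed the limit in either comparison. With the first definition 2 were lower in each, and 1 was higher than in unaffected fetuses. Choroid plexus markers summed to 995, 1322 and 1107 FPKM, endothelial markers to 57.2, 57.4 and 59.3, and markers of the meninges to 85.1, 78.3 and 75.6. Single genes carried several of these sums, as Ttr did that of the choroid plexus, the locus of Hbb-b1 and Hbb-b2 that of the erythroid loci and Cldn5 that of the endothelium. Cldn5 was at 36.9, 38.4 and 33.9 FPKM, while the median log2 difference of the 5 endothelial markers was 0.28 against control and 0.39 against unaffected fetuses, with 1 and 3 of them higher. With the length trend removed by per-gene lengths, these medians were 0.115 and 0.151, with 0 and 1 higher. With the first definition they were 0.145 and 0.149, with 1 and 2 higher.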

How the data were processed

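RNA of 9 mouse fetuses was sequenced from TruSeq RNA libraries. The labels name Trizol and the methods a column kit for extraction. According to the submitters' processing notes and the methods, reads were aligned to mm10 (Bowtie2 2.2.4.0 is listed, and the methods also name STAR), and the Cufflinks suite, with no version given in the sources used here, was run. The deposited FPKM are a single estimate for each locus in each group of 3 animals, made by the authors with that software, and 0 columns hold an estimate for one animal. The table also holds the authors' fold changes, test statistics, p-values and q-values, which were not used.

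Symbols were matched after names were split on commas, and the locus with the highest mean FPKM was kept. Starts were shifted to count from 1. Log2 ratios of FPKM were computed with no pseudocount. The background was the 15455 of 27095 loci with a mean FPKM of at least 1 and a value above 0 in every group, of which 80.8% have a transcript length in GENCODE M21. A running median over loci ordered by length was subtracted as an alternative, a step tested on simulated data. Lengths were defined in 3 ways, 2 of them after results had been seen, and the counts of the lists without the trend, and the sum without Fabp7, were also added after seeing the data. Other genes named are those of each list with the largest difference past 25% above or 20% below in affected against control (up to 3) or unaffected against control (up to 2), and genes beyond this rule (the eIF2 genes, Ppp1r15a, Gdf15, Fgf21, Cebpb, Cldn5, Ttr, Hbb-b1, Clpp, Yme1l1, the glucocorticoid targets and the neighbours of Atf5 and Ddit3) were named after their values were seen. One gene that the rule names is not reported here. The 10 genes and the lists were chosen with earlier results of these data known. The alternatives were pseudocounts of 0.1 and 1 FPKM, centring, length, summed loci, loci with a single name, folds of 1.5 and 1.1, all loci above 0, and genes with a mean FPKM of at least 1. Python 3.11.15, numpy 2.4.6 and pandas 2.3.3 were used.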

Additional observations from a re-analysis of the deposited data

How the results depend on the processing

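No paired analysis was possible because the deposited columns carry 1 value per group and no replicate, and for the same reason no animal could be left out. With 1 FPKM added, 1 of the 10 genes was higher in affected than in control fetuses instead of 3, beside 8.31% of all loci. In unaffected against control fetuses 0 were higher instead of 1, beside 3.47%. At 1.5-fold, 1 gene was higher in affected than in control fetuses, beside 3.47% of all loci. Against unaffected fetuses 0 were higher and 0 lower at that fold, beside 7.19% and 5.10%. At 1.1-fold, 4 genes were lower in affected than in control fetuses, 2 were higher than in unaffected fetuses, and 4 were higher in unaffected than in control fetuses. Centring on the median of all loci gave 1 gene lower in affected than in control fetuses, beside 12.9% of all loci. Removing the length trend with lengths over all transcripts, the definition run first, gave 1 gene lower in affected than in control fetuses, beside 8.48% of all loci. Against unaffected fetuses it gave 2 lower, beside 13.4%. With lengths over basic transcripts, added after seeing the data, the median log2 difference was 0.044 for affected against control and 0.026 against unaffected. In the latter comparison 1 gene was lower, beside 9.23% of all loci. With basic lengths per gene, added after the second, these medians were 0.027 and 0.026. Again 1 gene was lower than in unaffected fetuses, beside 9.24% of all loci. Of 237 values of single genes under the alternatives, 35 moved by 0.1 or more on the log2 scale, 19 had another sign than as deposited, all 19 of them with the length trend removed, and 0 of the differences past the limit changed sign.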
